A study of Rattus norvegicus with 12 samples.

Results

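A set of 132 array probes, out of 22523 on the array, read at least 1 log2 unit less signal in microglia kept in alpha-synuclein medium than in microglia kept in the control medium, after 6 h and again after 24 h. The rule took the log2 signals after quantile normalization, averaged the 3 arrays of each group, and kept every probe whose mean in alpha-synuclein medium was at least 1 log2 unit below its mean in control medium at both times. At 6 h, 513 probes met that threshold and at 24 h 673 did, so the 132 were 25.7% of the first set and 19.6% of the second. Of the 132 probes, 101 carried a gene symbol and stood for 100 genes, and 31 had no symbol in the annotation used. Because these differences chose the members, they are given below as a description, with no test. Lower at both sampled times is all that the rule records, since no time between 6 h and 24 h was measured.

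The cells were primary rat microglia, the resident macrophages of the brain grown in culture. For 6 h or 24 h they received medium in which SH-SY5Y cells, a human neuroblastoma line, had been kept after differentiation toward a neuron-like state. Those donor cells had been infected with an adenoviral vector that carried either alpha-synuclein (the medium called aSCM) or LacZ, the gene of bacterial beta-galactosidase (LZCM, the control medium). Both media therefore came from virus-infected neuroblastoma cells, were serum free and were concentrated before use, and the microglia themselves carried no transgene. The groups were aSCM at 6 h, LZCM at 6 h, aSCM at 24 h and LZCM at 24 h, with 3 Illumina arrays of total RNA each. The labels do not state that replicate samples came from separate animals, cultures or batches of medium, so the p-values below cover only the spread among the arrays, which could be purely technical.

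Resting microglia are recognised by a homeostatic program that includes the purinergic receptors P2ry12 and P2ry13, through which processes follow ATP and ADP released from nearby cells. Ligands of Toll-like receptors, among them TLR2, which the title of the study names as a receptor for secreted alpha-synuclein, switch microglia to a state rich in cytokines in which the homeostatic receptors are known to be low. Dividing cells are recognised by a separate program, the periodic genes of S phase and mitosis, many of which are held down together by the DREAM complex in non-dividing cells. Cultures of microglia are made from mixed glia, and can hold astrocytes and cells of the oligodendrocyte lineage, which are recognised by transcription factors such as Olig1 and Sox10.

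A probe was called above background when its signal exceeded the lower, background part of the array's signals with a one-sided p under 0.05, and a probe was tested if this held on 3 or more of the 12 arrays, as it did for 12351. All 132 members passed. Each array had between 10871 and 11443 probes above background. The labelled cell type was checked against 12 identity genes of microglia and macrophages on the array, of which 12 were tested. Their summed linear signal lay between 200720 and 201880 in aSCM and between 228350 and 235030 in LZCM at 6 h, and between 155180 and 158700 in aSCM and between 205410 and 218910 in LZCM at 24 h. Markers of other cells were also present: 11 of 11 oligodendrocyte lineage markers, 7 of 9 astrocyte markers and 12 of 12 neuron markers passed the filter, while Aqp4 and Gjb6 of the astrocyte list did not. In a bulk culture, fewer cells of a type and less RNA per cell cannot be told apart.

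The members had a median log2 difference of -1.37 at 6 h, between -3.98 and -1.01, against a median of -0.02 over all probes tested. At 24 h their median was -1.61, between -3.85 and -1.0015, against 0.03 over all probes tested. For all 132 members every aSCM array lay below every LZCM array at both times, which the rule makes likely. Over all probes tested 17.1% had that arrangement, and 15.7% were called lower in aSCM at both times. A difference of -2 or less was reached by 28 members at 6 h, by 38 at 24 h and by 12 at both. In LZCM every member was above background on all 3 arrays at both times. In aSCM 120 members were above background on 3 arrays at 6 h and 118 at 24 h, while 7 and 10 were above background on 0 arrays. No background correction was added to the deposited signals, so the fold changes of dim probes may be understated.

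**Figure D1:**
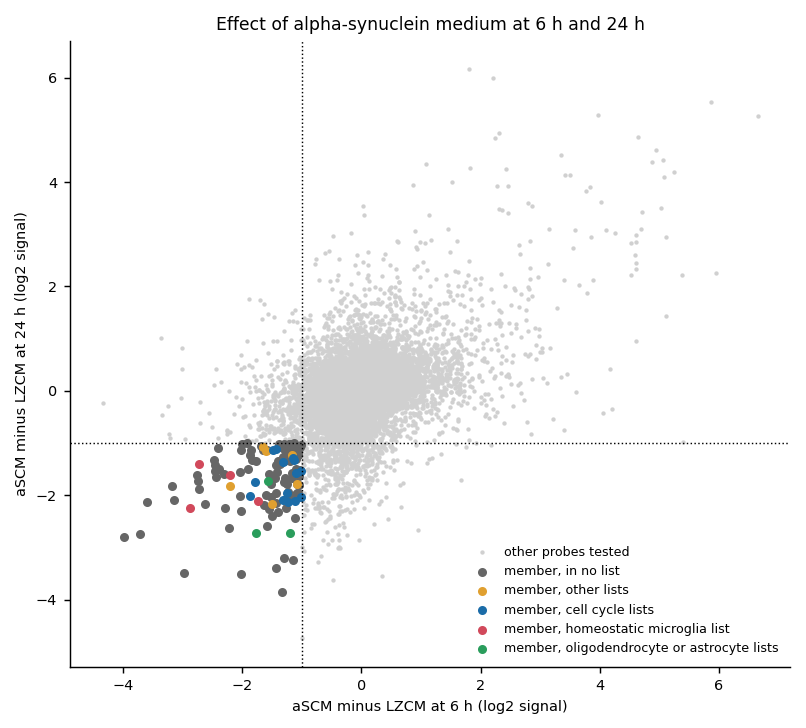
Each point is a probe, with the aSCM minus LZCM difference in log2 signal at 6 h on the x axis and at 24 h on the y axis. Coloured points are the 132 members by gene list, grey points are the other probes tested, and dotted lines mark the threshold of -1 on each axis, below and left of which all members lie by construction.

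At the edge of the rule, the 3 members nearest to the threshold were Pecr (-1.14 at 6 h and -1.0015 at 24 h), Kif23 (-1.0064 and -1.53) and Rmdn1 (-1.91 and -1.0066). The 3 non-members nearest to it were Stmn2 (-0.9987 and -2.999), Hsd17b4 (-1.62 and -0.9982) and Ccn2 (-0.9979 and -4.74), each short of -1 at one of the times.

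Genes of mitosis made up the largest block of members that a gene list could name. Of the 30 mitosis genes tested, 13 were members: Aurkb, Bub1b, Ccna2, Ccnb2, Cdca3, Cdk1, Ect2, Kif11, Kif20a, Kif23, Nusap1, Prc1 and Ttk. They span the machinery of cell division, from the kinase that drives entry into mitosis (Cdk1) and its cyclin partners (Ccna2, Ccnb2) through the spindle checkpoint (Bub1b, Ttk) and spindle motors and bundlers (Kif11, Prc1, Nusap1) to cytokinesis (Aurkb, Ect2, Kif20a, Kif23). Their log2 differences lay between -1.86 and -1.01 at 6 h and between -2.13 and -1.12 at 24 h, and 10 of the 13 were further below the control at 24 h than at 6 h. Of the DNA replication and G1/S list, with 29 genes tested, 1 was a member, Rrm2, the small subunit of ribonucleotide reductase.

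The sequence upstream of 3 of these genes is shown because their products act together in mitosis and all were lower in aSCM at both times. Sequences are the 250 bases before the annotated start in RefSeq's GRCr8 assembly of the rat genome, read 5′ to 3′ on the strand of the gene: chr8:79981659-79981908 on the minus strand for Ccnb2, chr20:19265043-19265292 on the plus strand for Cdk1 and chr1:143659231-143659480 on the plus strand for Prc1. Capitals mark CCAAT, the box bound by NF-Y, or its reverse complement ATTGG, and TTTGAA, the core of the cell cycle homology element that is bound by the DREAM complex, or its reverse complement TTCAAA.
Ccnb2: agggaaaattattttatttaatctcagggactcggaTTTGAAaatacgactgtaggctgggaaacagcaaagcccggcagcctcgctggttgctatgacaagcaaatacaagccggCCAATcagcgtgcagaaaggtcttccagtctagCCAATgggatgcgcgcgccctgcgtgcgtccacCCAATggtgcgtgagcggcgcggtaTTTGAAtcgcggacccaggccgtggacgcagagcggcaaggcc
Cdk1: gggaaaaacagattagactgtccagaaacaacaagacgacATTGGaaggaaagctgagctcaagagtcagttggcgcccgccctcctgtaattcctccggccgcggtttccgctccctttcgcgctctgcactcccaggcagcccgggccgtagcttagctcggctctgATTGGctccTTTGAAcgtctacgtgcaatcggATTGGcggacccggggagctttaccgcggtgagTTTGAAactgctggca
Prc1: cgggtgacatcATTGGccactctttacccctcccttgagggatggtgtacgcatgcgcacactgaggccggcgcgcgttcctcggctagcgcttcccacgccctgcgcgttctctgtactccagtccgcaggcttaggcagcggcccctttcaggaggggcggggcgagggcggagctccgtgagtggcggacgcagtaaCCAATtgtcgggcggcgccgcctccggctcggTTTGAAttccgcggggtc

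Ccnb2 held 3 CCAAT and 2 TTTGAA matches, Cdk1 held 3 and 2, and Prc1 held 2 and 1, and in the stretches shown no match overlapped another. In windows of 300 bases around the start, searched on both strands, CCAAT was present in 37.5% of all 33469 promoters, in 40 of the 77 member genes with a promoter (51.9%) and in 10 of 11 mitosis members. TTTGAA was present in 18.3% of all promoters, in 24 of the 77 member genes (31.2%) and in 8 of 11 mitosis members. Both motifs stood in 7.41% of all promoters and in 7 of 11 mitosis members, and also in 20 of the 35 promoters of the whole mitosis list. The count over all promoters was not limited to genes on the array, while member genes were counted once each, so the shares come from unlike sets. Of the 13 mitosis members, 11 had a promoter of 300 bases in the set searched. A match describes letters in this window, not occupancy by a factor.

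Ccnb2 (cyclin B2) read 10.34, 10.27 and 9.99 log2 signal in aSCM, against 11.90, 12.03 and 12.03 in LZCM, at 6 h. At 24 h it read 10.09, 9.82 and 9.93 in aSCM, against 11.71, 11.71 and 11.68 in LZCM. The groups lay far apart at both times, and aSCM arrays held 29.0% of the control signal at 6 h and 29.6% at 24 h. Cdk1, the kinase, read 10.57, 10.54 and 10.53 in aSCM, against 11.78, 11.94 and 11.85 in LZCM, at 6 h. At 24 h Cdk1 read 10.05, 9.92 and 9.90 in aSCM, against 12.13, 11.99 and 12.04 in LZCM. All 24 h aSCM arrays were lower than all 6 h aSCM arrays, while the LZCM arrays stood higher at 24 h, so aSCM held 40.4% of the control signal at 6 h and 23.4% at 24 h.

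Prc1, which bundles microtubules of the central spindle, read 10.43, 10.41 and 10.29 in aSCM, against 11.62, 11.57 and 11.62 in LZCM, at 6 h. It read 9.58, 9.57 and 9.51 in aSCM, against 11.72, 11.70 and 11.63 in LZCM, at 24 h. The control arrays were higher at 24 h by 0.08 on average, with a gap of 0.0041 between the times, and the aSCM arrays were lower at 24 h than at 6 h without overlap. Ccna2 (cyclin A2) sat near the edge of the rule at 6 h, with 9.61, 9.81 and 9.54 in aSCM against 10.62, 10.69 and 10.69 in LZCM. At 24 h Ccna2 read 8.39, 8.54 and 8.33 in aSCM, against 10.48, 10.46 and 10.45 in LZCM. Both media read lower at 24 h, aSCM by more, and its difference was -1.01 at 6 h and -2.04 at 24 h. Ttk, a kinase of the spindle checkpoint, had differences of -1.86 and -2.01, and Aurkb, the catalytic subunit of the chromosomal passenger complex, had -1.48 and -1.13.

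The rest of the mitosis list moved in the same direction. Counting members, 29 of 30 genes were called lower in aSCM and 1 higher at 6 h, where 32.2% of all probes tested were called lower and 25.9% higher. At 24 h 30 of 30 were called lower, against 29.2% of all probes tested called lower and 30.8% higher. The members' calls follow from the rule. All gene lists were chosen with earlier results of these data known, so their counts, here and below, are a description. Among the 17 genes that were not members, 16 were called lower at 6 h and 17 at 24 h, with medians of -0.88 and -0.97. Stmn1 (stathmin, which destabilises microtubules) fell by 0.93 ± 0.07 (SE, limma) at 6 h and by 2.19 ± 0.07 at 24 h, and Plk1 (polo-like kinase) fell by 0.89 ± 0.09 and by 1.51 ± 0.09. The exception was Cks2, a small Cdk-binding subunit, which rose by 1.48 ± 0.07 at 6 h and fell by 0.30 ± 0.07 at 24 h (adjusted p = 2.19e-12 and 0.00107, limma).

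The DNA replication and G1/S list, whose members license and copy DNA ahead of mitosis, was mostly lower at both times. At 6 h 19 of 29 genes were called lower and 2 higher, with a median of -0.37, and at 24 h 27 were called lower and 1 higher, with a median of -0.68, and no test between the times was run on the list. Rrm2 read 10.70, 10.85 and 10.38 in aSCM, against 11.77, 11.74 and 11.72 in LZCM, at 6 h. It read 9.55, 9.63 and 9.66 in aSCM, against 11.71, 11.73 and 11.76 in LZCM, at 24 h, so the control arrays stayed level and the aSCM arrays stood lower. A further 10 members act in cell division or DNA replication outside these lists, as grouped after their values were seen: Pbk, Spc25, Knstrn, Aspm, Asf1b, Ndc80, Fbxo5, Pclaf, Pole2 and Hmgb2. Their differences lay between -1.55 and -1.05 at 6 h and between -2.26 and -1.11 at 24 h, and 9 of the 10 were further below the control at 24 h.

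From the homeostatic microglia list 4 genes were members: P2ry12, P2ry13, Rasgrp3 and Slc2a5. P2ry12, the ADP receptor that marks resting microglia, read 7.44, 7.58 and 7.20 in aSCM, against 10.36, 10.36 and 10.11 in LZCM, at 6 h. At 24 h P2ry12 read 7.40, 7.39 and 7.24 in aSCM, against 9.71, 9.55 and 9.51 in LZCM. The aSCM arrays were alike at both times and the LZCM arrays were lower at 24 h than at 6 h, so aSCM held 13.7% of the control signal at 6 h and 21.0% at 24 h. These aSCM signals were above background on all 3 arrays at each time but dim, so without background correction the shares may be overstated. P2ry13, a second ADP receptor, read 7.68, 7.41 and 7.54 in aSCM, against 9.66, 9.88 and 9.67 in LZCM, at 6 h. It read 7.50, 7.32 and 7.40 in aSCM, against 9.09, 8.98 and 8.99 in LZCM, at 24 h. Here too the control arrays stood lower at the later time.

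Slc2a5, the fructose transporter GLUT5 and a long-used marker of microglia, read 7.32, 7.22 and 6.97 in aSCM, against 9.84, 10.07 and 9.73 in LZCM, at 6 h. At 24 h Slc2a5 read 6.97, 7.27 and 7.10 in aSCM, against 8.54, 8.53 and 8.49 in LZCM. The difference narrowed to -1.41 at 24 h, against -2.72 at 6 h, with level aSCM arrays, of which 2 of 3 were above background at each time, and lower LZCM arrays. Rasgrp3, an exchange factor for Ras and Rap, read 7.40, 7.57 and 7.42 in aSCM, against 9.30, 9.17 and 9.13 in LZCM, at 6 h. At 24 h it was not well above background on any aSCM array, with 6.62, 6.78 and 6.66, against 8.98, 8.81 and 8.62 in LZCM, and was at least 3.46-fold lower in aSCM. This bound sets the LZCM mean against the lowest signal called above background on each aSCM array, or the probe's own where that was higher.

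**Figure D2:**
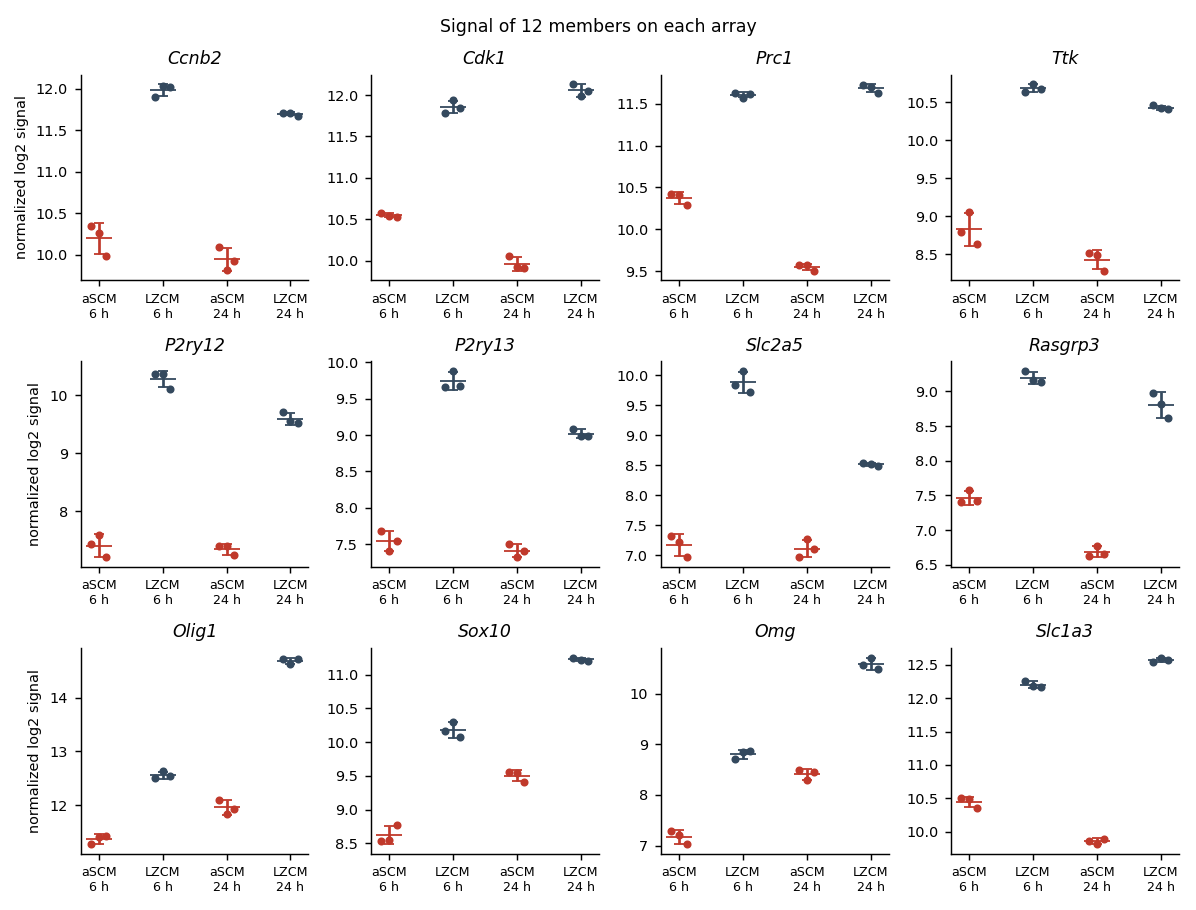
Normalized log2 signal of 12 members on each of the 3 arrays per group (points), with the group mean and SD (bars) and an axis range of its own for each gene. In every panel the aSCM arrays (red) lie below the LZCM arrays (dark blue) of the same time, and the control arrays of Olig1, Sox10 and Omg are higher at 24 h than at 6 h while those of P2ry12, P2ry13 and Slc2a5 are lower.

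The wider homeostatic list was mixed. Of its 27 genes, 16 were called lower in aSCM and 5 higher at 6 h, with a median of -0.35, and 19 were called lower and 5 higher at 24 h, with a median of -0.61. Among its 23 non-members, 12 were called lower and 5 higher at 6 h, and 15 lower and 5 higher at 24 h. Over all probes tested 32.2% were called lower and 25.9% higher at 6 h, and 29.2% and 30.8% at 24 h. Cx3cr1, the fractalkine receptor, was not well above background on any aSCM array at 6 h and was at least 3.68-fold lower there (adjusted p = 2.62e-14, limma). At 24 h it fell by 0.16 ± 0.07 (SE, limma), so it met the threshold of the rule at 6 h alone. Trem2, a lipid-sensing receptor, fell by 0.74 ± 0.07 and by 2.24 ± 0.07, and met it at 24 h alone. In the other direction Hpgds, a prostaglandin D synthase, rose by 0.63 ± 0.07 at 6 h and by 1.79 ± 0.07 at 24 h.

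Of 11 oligodendrocyte lineage markers tested 2 were members, Olig1 and Sox10, and of 7 astrocyte markers tested 1 was. Olig1, a transcription factor of oligodendrocytes and their precursors, read 11.27, 11.41 and 11.43 in aSCM, against 12.51, 12.63 and 12.54 in LZCM, at 6 h. At 24 h Olig1 read 12.10, 11.84 and 11.93 in aSCM, against 14.72, 14.62 and 14.72 in LZCM. Both media stood higher at 24 h, LZCM by more, and the difference was -1.19 at 6 h and -2.73 at 24 h. Sox10, which specifies the same lineage, read 8.53, 8.56 and 8.78 in aSCM, against 10.17, 10.30 and 10.07 in LZCM, at 6 h. At 24 h Sox10 read 9.56, 9.54 and 9.41 in aSCM, against 11.25, 11.22 and 11.20 in LZCM. Its difference was -1.56 at 6 h and -1.72 at 24 h, with both media higher at the later time. The astrocyte list gave 1 member, Slc1a3 (the glutamate transporter GLAST), with 10.50, 10.49 and 10.35 in aSCM against 12.26, 12.18 and 12.17 in LZCM at 6 h. At 24 h Slc1a3 read 9.86, 9.81 and 9.90 in aSCM, against 12.54, 12.61 and 12.57 in LZCM, lower in aSCM and higher in LZCM than at 6 h.

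A group of 11 further members, put together after their values were seen, are genes known from neural cells: Sox8, Myt1, Omg, Tspan2, Sparcl1, Gria2, Sez6, Lrrc4c, Slitrk2, Scn3b and Ncald. Their differences lay between -1.63 and -1.04 at 6 h and between -3.24 and -1.03 at 24 h. In LZCM all 11 were higher at 24 h than at 6 h, by 0.71 to 1.99 log2 units, and in aSCM their change lay between -1.21 and 1.24. Omg, the oligodendrocyte myelin glycoprotein, read 7.28, 7.20 and 7.02 in aSCM, against 8.70, 8.84 and 8.87 in LZCM, at 6 h. It read 8.49, 8.29 and 8.45 in aSCM, against 10.56, 10.71 and 10.49 in LZCM, at 24 h, so the aSCM arrays at 24 h came close to the LZCM arrays at 6 h. Sparcl1, a matrix protein secreted by astrocytes, read 9.76, 9.76 and 9.74 in aSCM, against 10.81, 11.00 and 10.91 in LZCM, at 6 h. At 24 h Sparcl1 read 9.73, 9.55 and 9.67 in aSCM, against 12.93, 12.89 and 12.84 in LZCM, so the aSCM arrays were lower at 24 h by a mean of 0.10, with a gap of 0.0043 between the times, beside a higher control. Tspan2, a tetraspanin of oligodendrocytes, had a difference of -1.29 at 6 h and of -3.21 at 24 h, where aSCM held 10.8% of the control signal.

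Marker lists of these cell types hold Olig1, Sox10 and Slc1a3 themselves, so their sums and counts are given with and without the members. The summed signal of the 11 oligodendrocyte lineage markers was 8960 to 9772 in aSCM and 15019 to 16632 in LZCM at 6 h, and 7907 to 8716 in aSCM and 38996 to 39727 in LZCM at 24 h. That of the 7 astrocyte markers was 4992 to 5242 in aSCM and 8400 to 8661 in LZCM at 6 h, and 3704 to 3764 in aSCM and 16176 to 17742 in LZCM at 24 h. Both sums in LZCM were thus higher at 24 h, and the sums in aSCM were not. Without the members, the sum of the other 9 oligodendrocyte markers was 6097 to 6579 in aSCM and 8006 to 9028 in LZCM at 6 h, and 3509 to 3566 in aSCM and 9592 to 11534 in LZCM at 24 h. The sum of the other 6 astrocyte markers was 3611 to 3807 in aSCM and 3759 to 3817 in LZCM at 6 h, where the groups overlapped, and 2773 to 2819 in aSCM and 10077 to 11497 in LZCM at 24 h. Of the 9, 5 were called lower in aSCM at 6 h and 8 at 24 h and 0 higher, with median differences of -0.34 and -1.29. Of the 6, 4 were called lower and 1 higher at 6 h and 5 lower and 0 higher at 24 h, with medians of -0.29 and -1.25. Among these non-members Gfap, the astrocyte filament protein, fell by 0.35 ± 0.08 (SE, limma) at 6 h and by 3.02 ± 0.08 at 24 h, and Ugt8, which makes the main glycolipids of myelin, fell by 0.95 ± 0.11 and by 2.71 ± 0.11. The part of these markers in the members' differences was not tested. For the neuron list, 2 of 12 genes were called lower and 3 higher at 6 h, and 9 lower and 2 higher at 24 h.

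The lowest sums of both differences among named members fell mostly outside the lists. Ctla2a, whose product inhibits cathepsin L-like proteases, read 10.10, 10.20 and 10.05 in aSCM, against 13.16, 13.20 and 12.89 in LZCM, at 6 h. At 24 h Ctla2a read 9.84, 9.86 and 9.72 in aSCM, against 13.29, 13.29 and 13.35 in LZCM. Its difference was -2.97 at 6 h and -3.50 at 24 h, and aSCM held 12.8% of the control signal at 6 h and 8.84% at 24 h. Plxdc2, a plexin-domain membrane protein, read 9.81, 10.12 and 9.84 in aSCM, against 11.88, 12.11 and 11.83 in LZCM, at 6 h. At 24 h it read 7.91, 8.11 and 8.10 in aSCM, against 11.49, 11.54 and 11.62 in LZCM, lower than at 6 h in both media and by more in aSCM. Slco2b1, an organic anion transporter, read 9.67, 9.79 and 9.80 in aSCM, against 11.13, 11.26 and 10.87 in LZCM, at 6 h. It read 6.87, 7.08 and 6.78 in aSCM, against 10.75, 10.75 and 10.80 in LZCM, at 24 h, where it was above background on 1 of 3 aSCM arrays and its difference of -3.85 was the lowest measured among members at that time.

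Klhl6 and Fut7 had the opposite shape, with the larger difference at 6 h. Klhl6, a kelch protein of lymphoid and myeloid cells, read 7.54, 7.52 and 7.36 in aSCM, against 10.62, 10.62 and 10.59 in LZCM, at 6 h. At 24 h it read 7.27, 7.65 and 7.48 in aSCM, against 9.58, 9.50 and 9.58 in LZCM, so the aSCM arrays stayed level and the control arrays stood lower. Fut7, the fucosyltransferase that completes selectin ligands on leukocytes, read 7.63, 7.78 and 7.53 in aSCM, against 10.79, 10.88 and 10.79 in LZCM, at 6 h. At 24 h Fut7 read 8.62, 8.70 and 8.62 in aSCM, against 10.56, 10.44 and 10.40 in LZCM, higher in aSCM and lower in LZCM than at 6 h. Tgfa, a ligand of the EGF receptor, had differences of -1.44 and -3.39, and its control arrays stood at 11.60, 11.68 and 11.64 at 24 h against 10.03, 10.20 and 9.84 at 6 h. Arl11, a small GTPase, had the even differences of -2.28 and -2.25, and Lpar4, a receptor for lysophosphatidic acid, had -2.01 and -2.31, with 1 of 3 aSCM arrays above background at 6 h.

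Members of the lysosome, antigen presentation and protease lists were fewer. From 35 lysosome genes tested, 3 were members: Ppt1, which removes palmitate from proteins, with differences of -1.17 and -1.23, Arsb, which takes sulfate off glycosaminoglycans, with -1.09 and -1.79, and Lipa, the acid lipase of cholesteryl esters, with -1.66 and -1.07. Over that list 25 genes were called lower and 4 higher at 6 h, and 20 lower and 9 higher at 24 h. RT1-DMb, a chain of the chaperone that loads peptides onto MHC class II, read 12.16, 12.21 and 12.31 in aSCM, against 13.86, 13.78 and 13.86 in LZCM, at 6 h. At 24 h RT1-DMb read 12.10, 12.09 and 12.14 in aSCM, against 13.29, 13.22 and 13.30 in LZCM. Its partner RT1-DMa, not a member, fell by 0.98 ± 0.08 (SE, limma) and by 0.65 ± 0.08. Plau, the urokinase-type plasminogen activator, had differences of -2.21 and -1.83, and Itgb5, an integrin chain used in the uptake of dying cells, had -1.49 and -2.16.

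A set of 6 members known from signalling in blood and immune cells, grouped after their values were seen, held Rgs10, Rgs18, Cytip, Il16, Klhl6 and Htr2b. Il16 and Htr2b were not well above background on any aSCM array at either time. Il16 was at least 3.77-fold lower at 6 h and at least 2.38-fold lower at 24 h, and Htr2b at least 3.65-fold and at least 1.64-fold lower. Measured differences of the 6, with these signals as read, lay between -3.14 and -1.40 at 6 h and between -2.09 and -1.13 at 24 h. Among 8 members of lipid and redox metabolism grouped in the same way (Abcd2, Pecr, Hacd4, Gltp, Nnt, G0s2, Mgst1 and Abca2), differences lay between -1.57 and -1.03 at 6 h and between -2.33 and -1.0015 at 24 h. Of these, Abcd2 was not well above background on any aSCM array at 6 h and was at least 2.22-fold lower there. Tmem140 was the gene with more than 1 member probe, and its probes gave -1.07 and -1.13, and -1.03 and -1.08.

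The change between 6 h and 24 h averaged over both media does not enter the rule, and it could be tested. In 1 limma fit over all probes tested, with Benjamini-Hochberg adjustment and calls under 0.05, 45 of the 132 members were higher at 24 h (34.1%), 72 were lower (54.5%) and 15 were not called. Over all probes tested 32.2% were higher and 27.1% lower, and 59.3% were called in either direction. The share of members that rose was close to that background and the share that fell was larger, though members are not independent of each other and no test of that difference was run. Members were also brighter, with a median mean signal of 9.62 against 8.40 over all probes tested, and the shares were not matched for signal. The median effect over the members was -0.15, between -1.73 and 1.51, against 0.02 over all probes tested.

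Genes known from neural cells held 5 of the 6 largest rises among named members without overlap in either medium. All of these but Olig1 come from the group put together after its values were seen, so the count is a description only. Omg rose by 1.51 ± 0.06 (SE), Olig1 by 1.36 ± 0.05 and Gria2, an AMPA receptor subunit, by 1.07 ± 0.06 (adjusted p = 3.55e-13, 3.73e-13 and 4.58e-11, limma). Sox8, a relative of Sox10, rose by 1.00 ± 0.05 and Lrrc4c, a netrin-G ligand, by 1.06 ± 0.05. G0s2, an inhibitor of the triglyceride lipase ATGL, rose by 1.09 ± 0.05, and read 6.98, 7.24 and 7.13 in aSCM at 6 h, where 2 of 3 arrays were above background, and 7.77, 7.70 and 7.76 in aSCM at 24 h, beside 8.47, 8.61 and 8.46 and then 10.10, 10.11 and 10.00 in LZCM. The 6 largest falls were those of Slco2b1 (-1.58 ± 0.06), Plxdc2 (-1.14 ± 0.06), Ankh (-0.81 ± 0.05), Atosa (-0.74 ± 0.06), Klhl24 (-0.73 ± 0.09) and Ccna2 (-0.72 ± 0.05). Their adjusted p ran from 6.82e-13 for Slco2b1 to 1.93e-06 for Klhl24 (limma). Ankh exports pyrophosphate and ATP from cells.

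By list, 12 of the 13 mitosis members fell over time and 1, Ect2, rose, by 0.14 ± 0.05 (adjusted p = 0.0341, limma). The call of Ect2 was lost when 1 array was left out in 7 of 12 cases. All 4 homeostatic members fell, from -0.38 ± 0.07 for P2ry12 (adjusted p = 8.56e-05, limma) to -0.71 ± 0.07 for Slc2a5. Sox10 rose by 0.96 ± 0.06, and Slc1a3 fell by 0.11 ± 0.04 (adjusted p = 0.0450, limma), a call lost in 9 of those 12 cases. Among non-members of the mitosis list 11 of 17 were called lower over time and 0 higher, and of the homeostatic list 14 of 23 and 4. Over all probes tested 27.1% were called lower and 32.2% higher. The non-members of the oligodendrocyte and astrocyte lists mostly went otherwise than their members. Of 9 oligodendrocyte lineage markers 3 were called higher and 5 lower at 24 h, and of 6 astrocyte markers 5 were called higher and 0 lower. The mean over the media hides opposite movements, which are given next as values.

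Within aSCM the members' change from 6 h to 24 h lay between -2.84 and 1.24, with a median of -0.11, and within LZCM between -2.21 and 2.13, with a median of -0.07. These changes share groups with the rule and were not tested. In both media 26 members (19.7%) were higher at 24 h and 35 (26.5%) lower without overlap of the arrays, as were 11.6% and 10.9% of all probes tested. In 14 members the LZCM arrays were higher and the aSCM arrays lower at 24 h, an arrangement found in 6.70% of all probes tested: Ctla2a, Tgfa, Tspan2, Slc1a3, Sparcl1, Oplah, Pclaf, Itgb5, Cdk1, Prc1, Pbk, Spc25, Aspm and Abca2. The reverse, LZCM lower and aSCM higher, held for 7 members and 8.57% of all probes tested. The named ones among them were Fut7, Il16, Cln8, Rmdn1 and Pink1, and the aSCM signals of Il16 were not well above background at either time. Some of these arrangements rest on small gaps: the arrays of the times came within 0.05 log2 units of each other in at least 1 of the media for 6 of the 14 (Sparcl1, Pclaf, Cdk1, Prc1, Spc25 and Aspm) and for Pink1 among the 7.

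**Figure D3:**
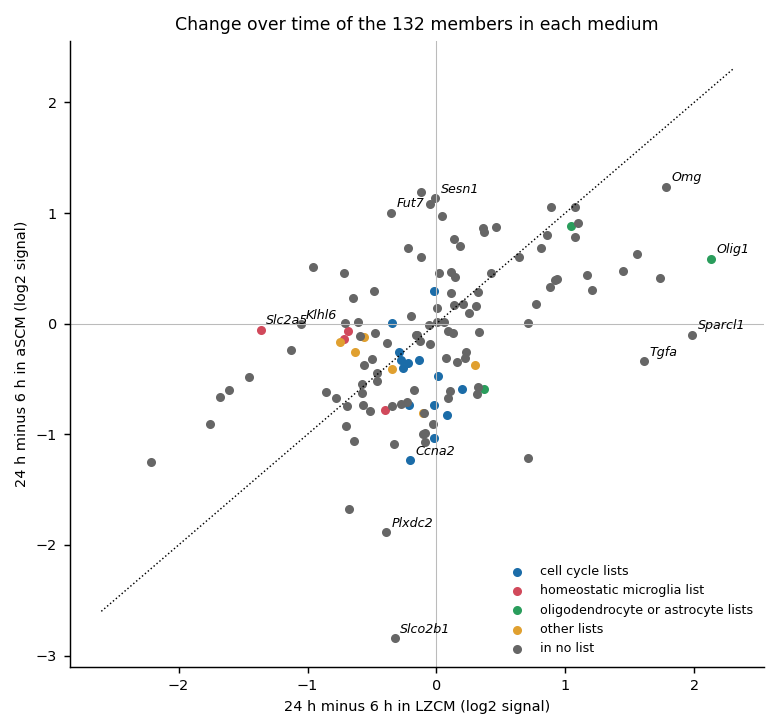
Change in log2 signal from 6 h to 24 h of the 132 members, in LZCM on the x axis and in aSCM on the y axis, coloured by gene list. On the dotted line the change is the same in both media; points below it had a larger deficit in aSCM at 24 h than at 6 h, as Slco2b1, Sparcl1 and Olig1, and points above it a smaller one, as Slc2a5, Fut7 and Sesn1.

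The difference between the media was lower at 24 h than at 6 h in 76 members and higher in 56, with a median change of -0.05, between -2.52 and 1.48, counting the aSCM signals that were not above background as read. Among named members the largest changes downward were those of Slco2b1, Sparcl1, Tgfa, Tspan2, Olig1 and Plxdc2. The largest in the other direction were those of Fut7, Slc2a5, Cln8, Sesn1, Klhl6 and Slc46a3. Cln8, which carries lysosomal enzymes out of the endoplasmic reticulum, read 9.52, 9.61 and 9.38 in aSCM, against 11.89, 11.94 and 11.88 in LZCM, at 6 h. At 24 h Cln8 read 10.79, 10.66 and 10.61 in aSCM, against 11.79, 11.76 and 11.81 in LZCM, higher in aSCM by 1.19 than at 6 h, with the groups still apart. Sesn1, a stress-induced inhibitor of mTORC1 signalling, read 8.71, 8.83 and 8.79 in aSCM, against 11.28, 11.36 and 11.08 in LZCM, at 6 h. It read 9.89, 9.99 and 9.85 in aSCM, against 11.15, 11.23 and 11.32 in LZCM, at 24 h. Slc46a3, a lysosomal transporter, was not well above background on any aSCM array at 6 h and at least 4.53-fold lower there, and had a difference of -1.53 at 24 h.

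The Toll-like receptor pathway list was called higher in aSCM more often than lower, and gave no member. Over all probes tested 25.9% were called higher and 32.2% lower at 6 h, and 30.8% and 29.2% at 24 h. Of 32 Toll-like receptor pathway genes tested, 17 were called higher in aSCM and 8 lower at 6 h, and 25 higher and 1 lower at 24 h, with medians of 0.25 and 0.52. Of 31 inflammatory cytokines and chemokines, 27 were called higher and 1 lower at 6 h and 21 higher and 2 lower at 24 h, with medians of 2.80 and 1.98. Cxcl2, a neutrophil chemokine, rose by 6.65 ± 0.13 (SE, limma) at 6 h and by 5.26 ± 0.13 at 24 h. The TLR pathway held a gene that met the threshold at 6 h alone: Tlr4, the receptor for lipopolysaccharide, fell by 1.22 ± 0.07 at 6 h and rose by 0.51 ± 0.07 at 24 h.

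The remaining lists held few members or none. Cholesterol synthesis (16 genes tested), the TGF-beta pathway (20), mitochondrial respiration and the TCA cycle (32) and cytoskeleton and migration (29) had 0 members. Their medians at 6 h and 24 h were -0.17 and -0.23 for cholesterol synthesis, 0.14 and -0.30 for the TGF-beta pathway, -0.26 and -0.03 for the mitochondrial list and 0.05 and 0.34 for the cytoskeleton list. Markers of fibroblasts and pericytes (3 of 8 tested), of endothelium (3 of 6) and of T, B and NK cells and granulocytes (4 of 12) held no member either, and most of them were not above background. Lipid handling, scavenger receptors, MHC class II and complement and coagulation had 1 each, which were Lipa, Itgb5, RT1-DMb and Plau. The medians of these lists were -0.18 and -0.06 for lipid handling, -0.26 and 0.18 for scavenger receptors, -0.14 and -0.10 for MHC class II and -0.13 and -0.62 for complement and coagulation. The mitosis list kept a median at or below -0.93 at 6 h and -1.28 at 24 h under each of the other scalings tried, and the oligodendrocyte list one at or below -0.31 and -1.61. The signs of the 6 h medians of the TGF-beta, complement, cytoskeleton, identity, neuron, endothelial and blood cell lists, and of the 24 h medians of the lipid, MHC class II, mitochondrial and identity lists, changed with the scaling.

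**Figure D4:**
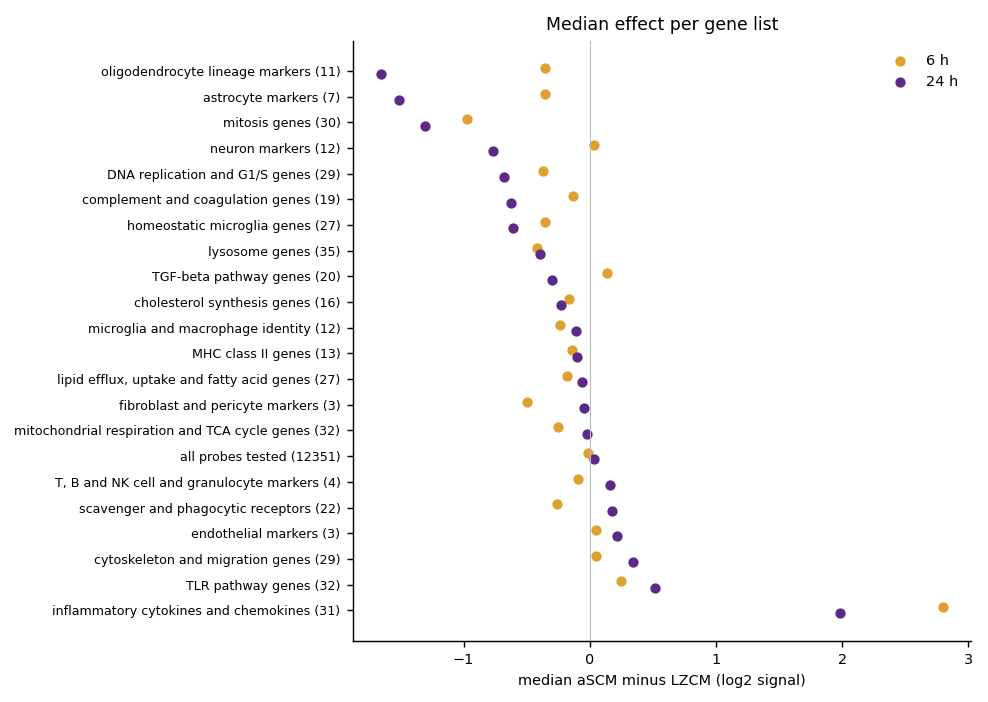
Median aSCM minus LZCM difference in log2 signal for each gene list at 6 h and at 24 h, with the number of genes tested in parentheses and with the median over all probes tested as an entry of its own. The mitosis list lies lowest at 6 h, at -0.98, the oligodendrocyte and astrocyte lists lie lowest at 24 h, at -1.65 and -1.52, and the cytokine list lies highest at both times.

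Of the 31 members without a symbol, differences lay between -3.98 and -1.01 at 6 h and between -2.80 and -1.01 at 24 h. In the mean time effect 10 of them were called higher and 19 lower at 24 h, as were 35 and 53 of the 101 named members. The probe with the lowest 6 h difference of all, ILMN_1368941, was one of them: it read 7.65, 7.82 and 7.66 in aSCM, against 11.74, 11.72 and 11.60 in LZCM, at 6 h, and 8.30, 8.11 and 8.11 in aSCM, against 11.01, 10.89 and 11.01 in LZCM, at 24 h. Some member genes had other probes that did not meet the rule. A second Kif11 probe gave -0.42 and -0.25, a second Paox probe gave -0.82 and 0.18, and other Gdf1 probes gave 0.45 and 0.31, and -0.50 and -0.41, while a second G0s2 probe was not above background often enough to be tested. The second Paox probe thus had the opposite sign at 24 h, and 1 of the other Gdf1 probes had it at both times, and which transcripts each probe reads was not analysed here.

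**Figure D5:**
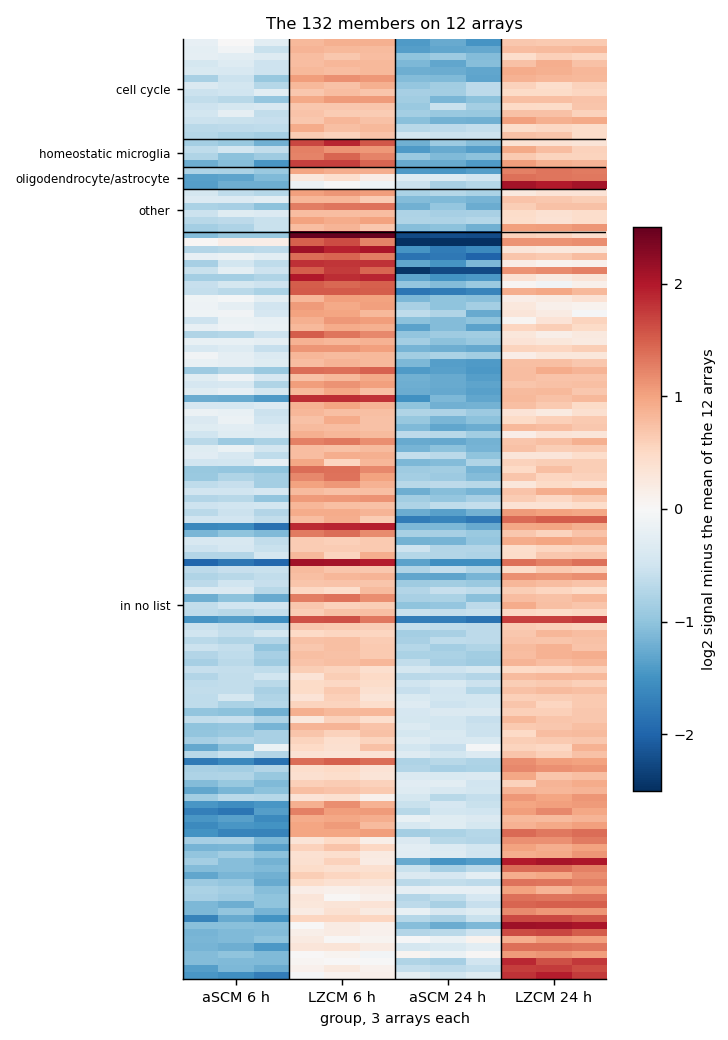
Log2 signal of the 132 members (rows) on the 12 arrays (columns), minus each probe's mean over the arrays, grouped by gene list and ordered within a group by the mean time effect. Within a time the aSCM columns lie at lower (bluer) values than the LZCM columns, colours stop at the ends of the scale, and the largest group, 105 probes in no list, runs from probes that are lower at 24 h at its top to probes that are higher at 24 h at its bottom.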

How the data were processed

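Per the labels, total RNA of 12 microglial samples was hybridised to Illumina rat arrays. The authors deposited 1 log2 signal per probe and array, not normalized between arrays; array medians ran from 6.77 to 7.19. The authors' processed value table also holds log2 values, with array medians of 6.92, and served as an alternative; it differed from the quantile-normalized signals by a median of 0.047. R 2.9.1 is named in the submitters' processing notes. How the scanner output was background-corrected is not given in the sources used here. The number of arrays limits precision.

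Signals were quantile normalized and fitted with limma 3.58.1 in R 4.3.3 as 4 group means (8 residual and 9.38 prior degrees of freedom). Detection p-values were not used here, so detection was estimated from each array's signals. Of 22523 probes, 13793 had a symbol in the platform annotation and 8730 none; 12351 were tested. The fit was tested on simulated data with known changes.

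The members and the gene lists were chosen with earlier results of these data known. Named members were the 12 with the lowest sum of both differences, the 6 largest rises and falls over time without overlap, those in a gene list, the 6 largest and smallest changes of the difference, and genes with several member probes; other names were chosen after their values were seen. From each list, non-members with the lowest or highest sums were eligible. Background correction, scaling, the filter, the replicate number as a block, array weights and leaving out each array were tried as alternatives.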

Additional observations from a re-analysis of the deposited data

Results flagged for a closer look

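In 14 members the arrays at 24 h lay above those at 6 h in LZCM and below them in aSCM, with no overlap in either medium, and in 7 members they lay the opposite way. These counts were picked out because every array of one medium moved against every array of the other. That difference between the media was not tested, since it shares terms with the rule that chose the members. The first set includes Cdk1, Prc1, Pclaf, Pbk, Spc25 and Aspm of cell division and Tspan2, Sparcl1 and Slc1a3 of glia, and over all probes tested 6.70% and 8.57% had these arrangements. In 6 of the 14 (Sparcl1, Pclaf, Cdk1, Prc1, Spc25 and Aspm) and in Pink1 of the 7 the arrays of the times came within 0.05 log2 units of each other in at least 1 of the media, and Il16, also of the 7, had aSCM signals not well above background.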

How the results depend on the processing

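The rule found 132 probes, 202 after normexp background correction with an offset of 16 and 216 with the deposited values not normalized, and it kept 80.3% of the 132 with 75th percentile scaling, the lowest share of the scalings tried. With deposited values the higher calls were 1399 at 6 h, 1568 at 24 h and 1412 over time, against 3205, 3800 and 3974. Higher calls made up 44.7% of calls at 6 h and 51.3% at 24 h, 26.8% and 35.4% with deposited values, and 57.2% and 63.8% with 75th percentile scaling. Those scalings moved the median of all probes tested, to -0.15 and -0.05 for deposited values and to 0.10 and 0.13 for the 75th percentile. Leaving out 1 array gave 126 to 141 members, 43 to 45 members called higher and 67 to 71 lower over time; over all probes tested 2976 to 3235 were higher and 3713 to 3992 lower at 6 h, 3504 to 3927 and 3367 to 3693 at 24 h, and 3774 to 3965 and 3226 to 3337 over time.

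No member changed to the opposite time call under any alternative run, and 115 to 132 of the 132 had the same call. Over the 50 members that the naming rule picked and all alternatives, 1123 time effects kept their call, 25 lost it (12 for Ect2, 12 for Slc1a3 and 1 for Fut7, with deposited values) and 2 gained one; none reversed, and the causes were not tested. With 1 array left out Ect2 ranged from 0.11 to 0.18 and Slc1a3 from -0.13 to -0.09; their adjusted p over the alternatives ran from 0.00448 to 0.998 and from 0.000749 to 0.111 (limma). The main fit did not treat the replicate numbers as pairs. Deviations of same-numbered arrays correlated between -0.12 and 0.29 over 18 pairs, with a median of 0.063, against a median of -0.029 for arrays of other numbers. These values cannot show that a pairing is absent. With the replicate block 46 members were called higher and 71 lower over time, and 130 of 132 had the same call. Dim probes limit the folds, since 10 members were above background on 0 aSCM arrays at 24 h.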
